A study of Mus musculus with 20 samples.

Results

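Glul, Oat, Slc1a2, Axin2, Rnf43, Znrf3, Lgr5, Tbx3 and Sp5 are 9 genes known as targets of Wnt and beta-catenin signalling in the hepatocytes around the central vein of the liver lobule. They were taken by gene symbol from the 40440 distinct entries of a gene count table, and each matched 1 entry. The study asked how removal of epididymal visceral adipose tissue (VAT) affects gene expression in the liver and in subcutaneous adipose tissue (SAT) of mice on a high-fat diet. The comparison described here is liver after VAT removal (VATR) against liver after sham surgery, with the same contrast in SAT beside it.

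There were 4 groups of 5 libraries, sham liver, VATR liver, sham SAT and VATR SAT, each from male C57BL/6J mice operated on at 8 to 9 months of age. In the VATR groups the epididymal fat pads were taken out through an opened abdomen, and in the sham groups the abdomen was cut and the pads were left in place. All 4 groups were fed the high-fat diet after the operation, so the data hold no group on chow, and how long they ate it is not stated in the sources at hand. Epididymal fat is one of several visceral depots, and the labels name no other depot as removed. The labels do not say whether a liver and a SAT library with the same number came from 1 mouse. Nor do they name the animal behind each library, so the p-values below measure the spread between these libraries, which may be partly technical.

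Hepatocytes differ in what they do along the path of blood from the portal to the central vein, which is called zonation. Wnt ligands and R-spondins made by endothelial cells of the central vein act on Frizzled and LRP receptors of the nearest hepatocytes, where beta-catenin is then spared from destruction and switches on target genes together with TCF and LEF factors. Some targets carry out the work of that zone, such as making glutamine from ammonia, and others feed back on the pathway itself. In bulk tissue a lower value can come from fewer cells of a type or from less RNA per cell, and these cannot be told apart here.

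Total counts ran from 20307159 to 43618452 per library, and in the livers from 20307159, in VATR liver 3, to 37572706. The libraries carried the markers of their labelled tissue. The summed level of 7 hepatocyte markers was 53359 to 71690 CPM (read counts relative to the scaled library total) in the 10 livers and 4.43 to 32.5 CPM in the 10 SAT libraries, and that of 7 adipocyte markers was 9759 to 20708 CPM in SAT and 48.4 to 142 CPM in liver. Sham SAT 3 and sham SAT 4 stood apart, with a summed level of 7 lymphocyte markers of 477 and 471 CPM against 5.99 to 12.9 CPM in the other 8 SAT libraries. VATR SAT 2 also stood apart, with 7 skeletal muscle markers summing to 24899 CPM against 14.7 to 2096 CPM in the other 9 SAT libraries. Where leaving out sham SAT 3 and 4 turned the sign of a SAT result reported here, the value without them is also given. Some SAT results are also given without VATR SAT 2. CPM values are scaled within each tissue by the trimmed mean of M-values (TMM) unless stated otherwise.

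The genes lie on 6 chromosomes of GRCm38. Glul is at chr1:153899944-153909723, Oat at chr7:132557478-132576398, Slc1a2 at chr2:102658659-102790784 and Sp5 at chr2:70474923-70477729. Axin2 (chr11:108920349-108950783), Rnf43 (chr11:87662722-87735539) and Znrf3 (chr11:5276324-5444847) share chromosome 11, and Lgr5 is at chr10:115450311-115587780 and Tbx3 at chr5:119670669-119684724. All are protein-coding. Exons of 4 of them overlap an exon on the opposite strand, and whether the counting used the strand is not stated in the sources at hand. The overlapping genes, Teddm2 at Glul, Gm13872 at Slc1a2, Gm11670 at Axin2 and Tbx3os1 at Tbx3, had counts in liver of 0.346%, 1.45%, 1.37% and 0.391% of those of the gene they overlap.

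TCF and LEF factors bind a short core, searched here as CTTTGAT and CTTTGAA on both strands (ATCAAAG and TTCAAAG when read on the other strand) in RefSeq promoters of GRCm38.p6, each 300 bases long with 250 before and 50 after the start of transcription. The table held 7 promoters of 6 of the genes. A match was found in 2 of the 7, and in 2842 of all 32851 promoters (8.65%). Both are shown up to the start site, with the match in capitals, because they are the promoters of the set that hold the core. The first is chr2:102706188-102706437 on the plus strand, before a start that lies inside the span of Slc1a2, with the core on the other strand at bases 207 to 201 before the start. The second is chr2:70474673-70474922 on the plus strand, before the start of Sp5, with the core on the same strand at bases 104 to 98 before it.
Slc1a2: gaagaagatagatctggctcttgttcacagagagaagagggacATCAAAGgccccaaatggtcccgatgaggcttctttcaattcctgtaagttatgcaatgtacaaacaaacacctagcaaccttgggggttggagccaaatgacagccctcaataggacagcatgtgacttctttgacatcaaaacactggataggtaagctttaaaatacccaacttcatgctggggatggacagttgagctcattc
Sp5: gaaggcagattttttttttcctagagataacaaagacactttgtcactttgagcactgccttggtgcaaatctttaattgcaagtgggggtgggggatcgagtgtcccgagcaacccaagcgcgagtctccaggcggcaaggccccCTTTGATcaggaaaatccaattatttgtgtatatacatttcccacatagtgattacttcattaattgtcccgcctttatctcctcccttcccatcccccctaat
A match describes the letters only. The promoters of Glul, Oat, Axin2 and Rnf43 held neither core in this window, which says nothing about the factors at those genes.

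None of the 9 genes differed between VATR and sham liver past the threshold, an adjusted p of 0.05 by edgeR's quasi-likelihood test with Benjamini-Hochberg adjustment over all genes tested. Of the 9, 5 had a higher and 4 a lower fitted level in VATR liver, from -0.17 to 0.10 on the log2 scale, with a median of 0.01, and the median of all genes tested was also 0.01. The sham and VATR values of each of the 9 overlapped, as they did for all but 2.44% of the genes tested. Across the liver 17078 genes were tested and 0 passed (percent called 0), while 1691 (9.9%) had an unadjusted p below 0.05, a mark that 0 of the 9 genes reached. DESeq2 called 220 genes in the same libraries and limma voom 3, none of them among the 9.

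**Figure D1:**
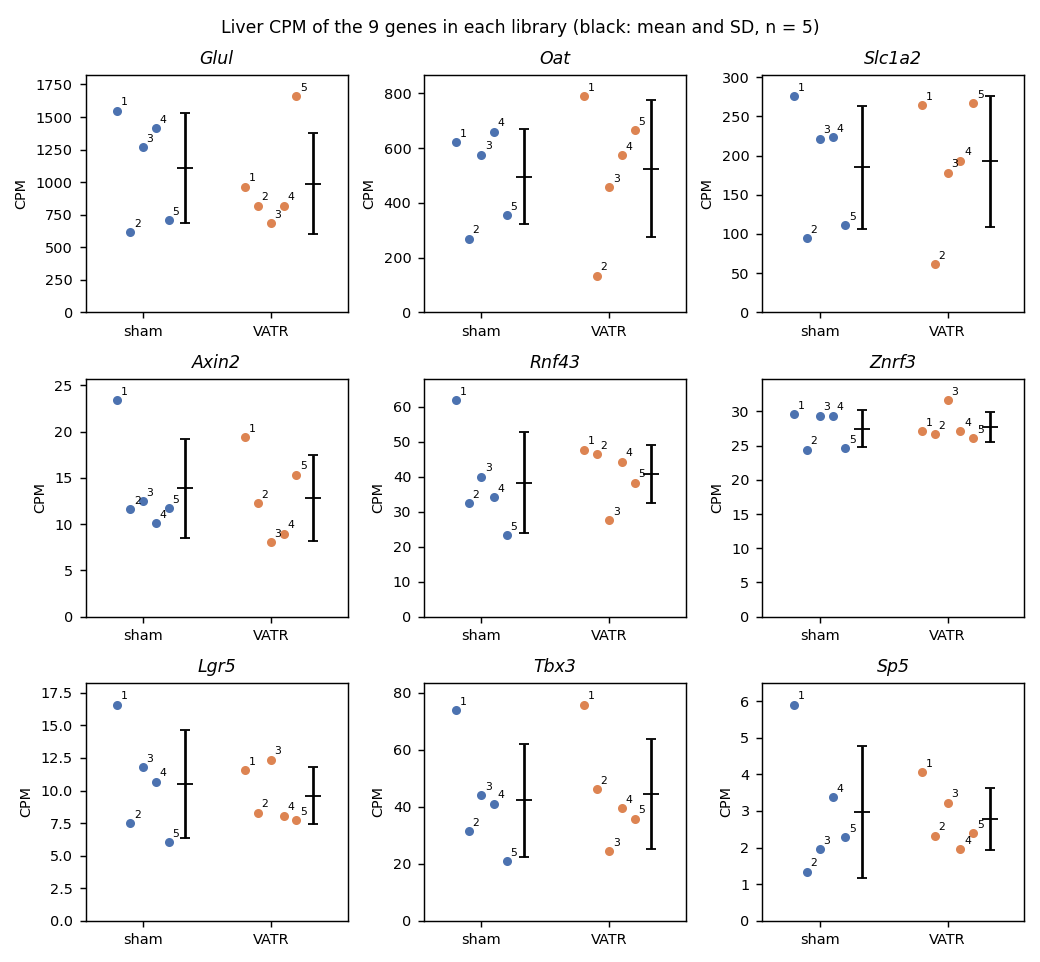
Level of each of the 9 genes in CPM (vertical axes, linear and starting at 0, 1 panel per gene) in the 5 sham and the 5 VATR livers; points are libraries with their number, and the black mark is the mean with its SD. The groups overlap in all 9 panels, and sham liver 1 is the highest of the 10 livers in 5 of them.

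Of the metabolic targets, Glul encodes glutamine synthetase, which joins ammonia to glutamate in the last hepatocytes before the central vein. Glul stood at 1549, 617, 1266, 1416 and 709.8 CPM in sham livers 1 to 5 and at 964, 818, 684, 817.6 and 1660.3 CPM in VATR livers 1 to 5. Sham livers 2 and 5 were low, VATR liver 5 was the highest of all 10, and the other 4 VATR livers lay within the sham range. The means were 1112 ± 422 CPM (SD, n = 5) in sham and 988.8 ± 388 CPM (SD, n = 5) in VATR liver, a log2 difference of -0.17 ± 0.31 (SE; edgeR quasi-likelihood test, Benjamini-Hochberg adjusted p = 0.904). The 95% confidence interval of the fold ran from 0.556 to 1.42.

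Oat encodes ornithine aminotransferase, a mitochondrial enzyme that turns ornithine toward glutamate and proline. Oat stood at 621, 269, 576, 660.0 and 354 CPM in sham livers 1 to 5 and at 789.8, 133, 457, 574 and 666 CPM in VATR livers 1 to 5. Both the highest and the lowest of the 10 values were in the VATR group, in livers 1 and 2, and the groups overlapped over the whole sham range. The log2 difference was 0.08 ± 0.42 (SE; edgeR, Benjamini-Hochberg adjusted p = 0.968), with a fold between 0.556 and 2.01 (95% confidence interval).

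Slc1a2 encodes GLT-1, a glutamate transporter of the plasma membrane. Its levels were 276, 94.5, 221, 223 and 111 CPM in sham livers 1 to 5 and 264, 61.2, 178, 193 and 267 CPM in VATR livers 1 to 5. The low libraries were sham livers 2 and 5 and VATR liver 2, the same libraries that were lowest for Oat. The log2 difference was 0.06 ± 0.41 (SE; edgeR, Benjamini-Hochberg adjusted p = 0.975), with a fold between 0.558 and 1.94 (95% confidence interval).

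Among the feedback genes, Axin2 encodes a scaffold of the complex that marks beta-catenin for destruction. Axin2 stood at 23.4, 11.6, 12.5, 10.1 and 11.7 CPM in sham livers 1 to 5 and at 19.4, 12.2, 8.07, 8.95 and 15.4 CPM in VATR livers 1 to 5. Sham liver 1 was far above the other 4 sham livers, and VATR livers 1 and 5 were the next highest. The log2 difference was -0.11 ± 0.29 (SE; edgeR, Benjamini-Hochberg adjusted p = 0.937). Without sham liver 1 its sign turned, to 0.16.

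Rnf43 and Znrf3 encode membrane ubiquitin ligases that remove Frizzled receptors from the cell surface. Rnf43 stood at 61.9, 32.4, 40.0, 34.1 and 23.2 CPM in sham livers 1 to 5 and at 47.8, 46.5, 27.6, 44.3 and 38.3 CPM in VATR livers 1 to 5. The highest and the lowest value were both in sham livers, and all VATR livers lay between them. Its log2 difference was 0.10 ± 0.24 (SE; edgeR, Benjamini-Hochberg adjusted p = 0.935).

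Znrf3 stood at 29.6, 24.4, 29.4, 29.3 and 24.6 CPM in sham livers 1 to 5 and at 27.1, 26.7, 31.6, 27.1 and 26.1 CPM in VATR livers 1 to 5. It was the steadiest of the 9 genes, with the highest liver at 1.29 times the lowest. The log2 difference of 0.01 ± 0.08 (SE; edgeR, Benjamini-Hochberg adjusted p = 0.975) allows a fold between 0.888 and 1.14 (95% confidence interval), the narrowest interval of the set.

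Lgr5 encodes the R-spondin receptor that marks stem cells in several epithelia and pericentral hepatocytes in the liver. Lgr5 stood at 16.6, 7.47, 11.8, 10.7 and 6.03 CPM in sham livers 1 to 5 and at 11.5, 8.29, 12.4, 8.07 and 7.71 CPM in VATR livers 1 to 5. All VATR livers lay inside the sham range. The log2 difference was -0.13 ± 0.26 (SE; edgeR, Benjamini-Hochberg adjusted p = 0.911), with a fold between 0.617 and 1.35 (95% confidence interval).

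Tbx3 and Sp5 encode transcription factors, Tbx3 of the T-box family and Sp5 of the family of Sp zinc finger proteins. Tbx3 stood at 73.8, 31.4, 44.1, 41.0 and 20.8 CPM in sham livers 1 to 5 and at 75.8, 46.1, 24.3, 39.5 and 35.8 CPM in VATR livers 1 to 5. Liver 1 of each group was high, and sham liver 5 and VATR liver 3 were low. The log2 difference was 0.07 ± 0.36 (SE; edgeR, Benjamini-Hochberg adjusted p = 0.967).

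Sp5, the gene with the fewest reads of the 9 in liver, stood at 5.91, 1.35, 1.95, 3.38 and 2.29 CPM in sham livers 1 to 5 and at 4.06, 2.32, 3.23, 1.96 and 2.39 CPM in VATR livers 1 to 5. These values rest on 47 to 168 reads a library. Sham liver 1 was again the highest, and the groups overlapped. The log2 difference was -0.09 ± 0.37 (SE; edgeR, Benjamini-Hochberg adjusted p = 0.96), with a fold between 0.537 and 1.65 (95% confidence interval).

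**Figure D2:**
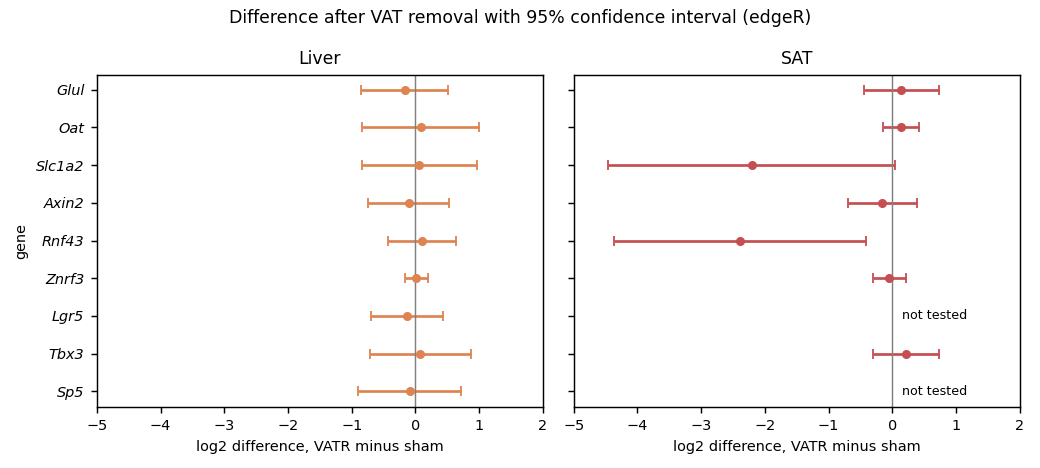
Log2 difference of VATR minus sham (horizontal axis) for each gene (vertical axis) in liver and in SAT; points are edgeR estimates and bars are 95% confidence intervals, and Lgr5 and Sp5 have none in SAT because too few reads were counted. In liver every interval crosses 0, and in SAT the intervals of Slc1a2 and Rnf43 are the widest.

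The intervals differ in width because the genes differed in how much they varied between livers of 1 group. The pooled SD of log2 CPM within groups was 0.828 for Oat and 0.784 for Slc1a2, wider than 92.8% and 91.5% of the 17078 genes tested. Sp5 (0.644), Tbx3 (0.634), Glul (0.553), Axin2 (0.501), Lgr5 (0.462) and Rnf43 (0.431) lay between these and the median over all genes of 0.258. Znrf3, at 0.129, was wider than only 19.1% of genes. Over all 10 livers the highest level was 5.93 times the lowest for Oat, 4.50 times for Slc1a2, 4.39 times for Sp5 and 3.64 times for Tbx3. For Axin2, Lgr5, Glul and Rnf43 this ratio was 2.67 to 2.90.

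The high and low livers were often the same ones. Sham liver 1 was the highest of the 10 for 5 genes and among the top 3 for 8, and VATR liver 1 was among the top 3 for 6. Sham liver 2 was among the lowest 3 for 8 genes and sham liver 5 for 7. VATR liver 2 was different: it was the lowest of all for Oat and Slc1a2 but among the top 3 for 2 other genes, Rnf43 and Tbx3.

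Across the 10 livers, 35 of the 36 pairs of genes had a positive Pearson correlation of log2 CPM, with a median r of 0.503. Over all pairs of the 17078 genes tested in liver, 49.8% were positive and the median r was -0.002. Some signs turned when livers were left out. Without the 2 livers farthest from the median of the first gene named, r was -0.422 for Axin2 with Lgr5 and -0.335 with Sp5. It was -0.381 for Rnf43 with Znrf3 and -0.198 for Rnf43 with Lgr5. Apart from Axin2 with Znrf3, the other pairs stayed positive. Without sham liver 1, r of Axin2 with Lgr5 was -0.03. Without sham liver 5, r was -0.082 for Rnf43 with Znrf3 and -0.019 for Znrf3 with Tbx3. After Benjamini-Hochberg adjustment over the 36 pairs, 3 passed a two-sided permutation test at 0.05 by Pearson's r, and the same number by Spearman's rho. The groups of 5 are too small for a correlation of their own, so r is also given after each gene was centred on its group means. With 100000 permutations the smallest p obtainable was 1e-05. The permutations treated the 10 livers as exchangeable, without regard to their group or replicate number.

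Oat and Slc1a2, both of which handle glutamate or its precursors, varied together most closely. Their correlation was r = 0.972 (permutation p = 7e-05, adjusted 0.00252) and rho = 0.915 (permutation p = 0.0006, adjusted 0.0072, n = 10 livers). Without the 2 livers farthest from the median of Oat, r was 0.924, and after centring on group means it was 0.973. Oat stood between 2.18 and 3.19 times the CPM of Slc1a2 in every liver, while both genes moved over a far wider range. Among the 17077 other genes tested in liver, Slc1a2 had the highest r with Oat, and Oat the highest with Slc1a2. For the pair of Rnf43 and Tbx3 these ranks were 2 and 4, and for Znrf3 and Lgr5 they were 136 and 124. The adjusted p stayed below 0.05 in all 13 alternatives, from 0.000694 to 0.00794.

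Marker levels also differed between these livers. In the 3 livers lowest in Oat and Slc1a2, VATR liver 2, sham liver 2 and sham liver 5, 6 genes typical of adipose progenitors and fibroblasts summed to 649, 521 and 546 CPM, against 285 to 547 CPM in the other 7 livers. The sum of 7 cholangiocyte markers was 243, 74.0 and 103 CPM in the same libraries, and 32.0 to 151 CPM in the others. The values overlapped: the 547 and 151 CPM were both those of VATR liver 5, which was high in Oat and Slc1a2. The hepatocyte sum was 69260.2, 61385 and 53568 CPM in these 3 and 53359 to 71690 CPM in the rest. That of 7 stellate cell markers was 753, 563 and 456 CPM in these 3 and 436 to 669 CPM in the rest. The other marker lists are not compared here. The part of these markers in the correlation was not tested.

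Rnf43 and Tbx3 formed the second pair, with r = 0.925 (permutation p = 0.00016, adjusted 0.00288) and rho = 0.927 (permutation p = 0.00028, adjusted 0.0072, n = 10 livers). Without the 2 livers farthest from the median of Rnf43, r was 0.842, and after centring it was 0.929. This pair also stayed below 0.05 in all 13 alternatives, with adjusted p from 0.00268 to 0.0237.

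Znrf3 and Lgr5, the ligase and the receptor that meet on R-spondin, formed the third, with r = 0.836 (permutation p = 0.00292, adjusted 0.035) and rho = 0.915 (permutation p = 0.00047, adjusted 0.0072, n = 10 livers). Without the 2 farthest livers r was 0.874, and after centring 0.847. It was below 0.05 in 6 of the 13 alternatives. It was lost without sham liver 2 (adjusted p = 0.0711), 3 (0.0542), 4 (0.0542) or 5 (0.0791) and without VATR liver 2 (0.0556), 4 (0.0625) or 5 (0.0727), all by exact permutation. VATR liver 3, the library with the fewest reads, had the highest Znrf3 of the 10 and the second highest Lgr5, and without it the adjusted p by exact permutation was 0.0208.

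**Figure D3:**
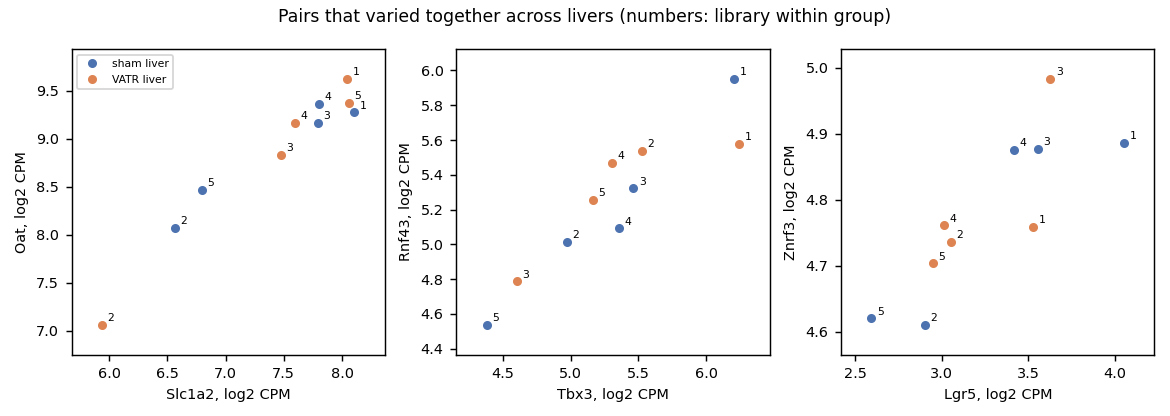
Levels of the 3 correlated pairs in log2 CPM (both axes) in 10 livers, with the library number beside each point and the group by colour. Oat and Slc1a2 fall on a narrow line that ends at VATR liver 2, and sham and VATR livers mix along it.

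Glul followed the pair of glutamate genes less closely. Its r with Slc1a2 was 0.697 (permutation p = 0.0248, adjusted 0.149) with rho of 0.818 (permutation p = 0.00557, adjusted 0.0501), and without the 2 livers farthest from the median of Glul r was 0.581. With Oat, r was 0.580 (permutation p = 0.0695, adjusted 0.243) and rho 0.733 (permutation p = 0.0202, adjusted 0.145), and without the 2 farthest livers r was 0.518. The ratio of Glul to Oat CPM ran from 1.22 in VATR liver 1 to 6.14 in VATR liver 2. With no liver left out, the single negative pair was Axin2 with Znrf3, at r = -0.104 (permutation p = 0.774, adjusted 0.774). Its rho was -0.079 (permutation p = 0.839, adjusted 0.839), and its r was -0.551 without the 2 farthest livers.

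**Figure D4:**
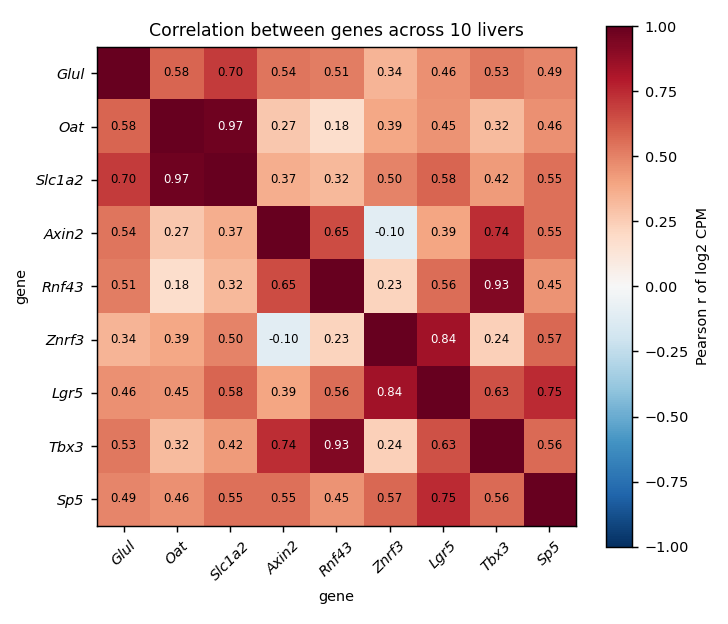
Pearson r of log2 CPM between each pair of the 9 genes (both axes) across 10 livers, as colour and number. The highest values are 0.972 for Oat with Slc1a2, 0.925 for Rnf43 with Tbx3 and 0.836 for Znrf3 with Lgr5, and the lowest is -0.104 for Axin2 with Znrf3.

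Beyond the 9, the genes whose log2 CPM was most like that of Glul, Axin2 and Lgr5 over the 10 livers were sought as a description, among the 14074 genes whose mean in liver reached 1 CPM. For Glul they included Glns-ps1 (r = 0.958) and Gm5963 (0.943), both processed pseudogenes. Glns-ps1, on chromosome 11, stood at 1.45% of the mean Glul level. The counting of reads with several matches is not described in the sources at hand, and reads of Glul may be shared with such copies. For Axin2 they were Slc16a4 (0.930), Angptl7 (0.914) and Fbxl8 (0.894), and for Lgr5 they included Ssbp3 (0.956) and Pard3 (0.952).

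Levels of different genes were compared per kilobase of exon, after scaling over all 20 libraries. In sham liver the order was Glul (409.5 ± 159 CPM per kb, SD, n = 5), Oat (257.2 ± 92.6), Slc1a2 (17.3 ± 7.42), Tbx3 (7.79 ± 3.68), Rnf43 (7.14 ± 2.71), Znrf3 (4.25 ± 0.465), Axin2 (3.07 ± 1.19), Sp5 (1.73 ± 1.05) and Lgr5 (1.25 ± 0.495). Only the step from Oat to Slc1a2 separated neighbours whose libraries did not overlap. The order was the same in VATR liver, where Rnf43 and Znrf3 also did not overlap. The enzymes thus lay far above the receptor, the ligases and the transcription factors per length of transcript. In sham SAT the order was Glul (180.9 ± 82.9 CPM per kb), Oat (36.8 ± 6.73), Axin2 (3.45 ± 1.09), Tbx3 (2.88 ± 1.12), Znrf3 (2.67 ± 0.470), Rnf43 (0.447 ± 0.519), Slc1a2 (0.0921 ± 0.113), Sp5 (0.0214 ± 0.0298) and Lgr5 (0.0168 ± 0.00250). There, Axin2, Tbx3 and Znrf3 overlapped each other and stood apart from Oat above and Rnf43 below.

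**Figure D5:**
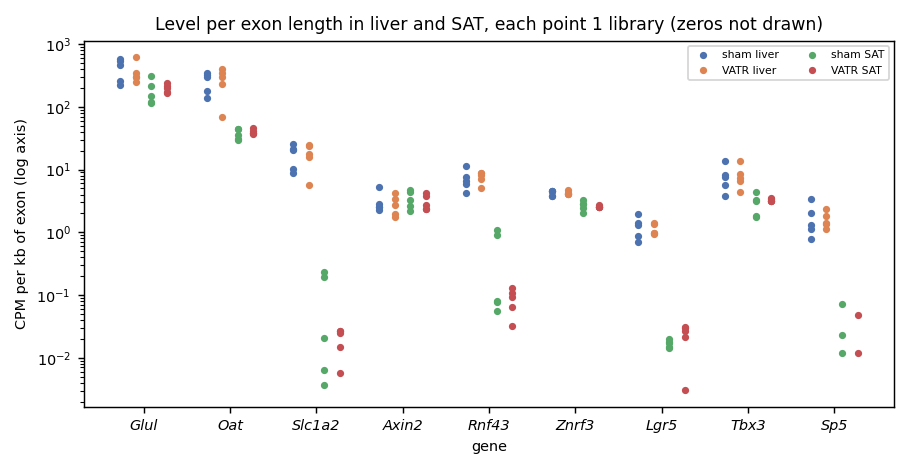
Level of each gene (horizontal axis) in CPM per kilobase of exon (vertical axis, logarithmic) in sham and VATR liver and SAT, scaled over all 20 libraries. Each point is 1 library, and libraries at 0 are not drawn. Slc1a2, Rnf43, Lgr5 and Sp5 are lower in SAT than in liver by the largest distances, and Axin2 is at a like height in both tissues.

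Sham liver was compared with sham SAT in 1 fit over all 20 libraries. The genes were chosen as liver genes, so a higher level in liver is in part given by that choice. Of the 9, 8 were higher in sham liver (edgeR, Benjamini-Hochberg adjusted p below 0.05), where 30.6% of 19954 genes tested were called higher in liver and 67.1% were called in either direction. An unadjusted p below 0.05 was reached by 8 of the 9 and by 69.8% of all genes. The median log2 difference was 2.81 over the 9 and -0.11 over all genes tested. Sham liver and sham SAT did not overlap for 6 of them, against 51.8% of all genes.

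The largest fitted differences were those of Slc1a2, Sp5 and Lgr5. Slc1a2 was 187-fold higher in sham liver (log2 difference 7.55 ± 0.81, SE; edgeR, Benjamini-Hochberg adjusted p = 9.09e-08), and Lgr5, with 6 to 10 reads a library in sham SAT, 72.7-fold (6.18 ± 0.37, adjusted p = 1.7e-11). Sp5 had 9 reads in the 5 sham SAT libraries together and 2 of them held 0, so its log2 difference of 6.23 ± 0.70 (edgeR, Benjamini-Hochberg adjusted p = 1.76e-07) is uncertain in size. Rnf43 was 15.9-fold higher in liver (3.99 ± 0.65, adjusted p = 2.13e-05), Oat 7.00-fold (2.81 ± 0.35, adjusted p = 6.09e-07) and Tbx3 2.71-fold (1.44 ± 0.32, adjusted p = 0.000597). Glul was 2.26-fold higher (1.18 ± 0.31, adjusted p = 0.00265) and Znrf3 1.59-fold (0.67 ± 0.10, adjusted p = 1.1e-05).

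Axin2 did not pass, at a log2 difference of -0.17 ± 0.28 (SE; edgeR, Benjamini-Hochberg adjusted p = 0.608) and a fold between 0.593 and 1.33 (95% confidence interval). On the scale of all 20 libraries it stood at 12.6 to 28.5 CPM in sham liver and 12.1 to 25.9 CPM in sham SAT. Scaled within each tissue, Axin2 had means of 13.9 CPM in sham liver and 23.0 CPM in sham SAT. Those of Znrf3 were 27.5 and 25.5 CPM. Values scaled within each tissue are not on 1 scale, so these means do not compare the tissues. In all 29 alternatives the log2 difference of Znrf3 stayed positive and called, from 0.54 to 0.75. That of Axin2 stayed negative and was never called, from -0.44 to -0.035. Leaving out sham SAT 3 and 4 raised the log2 difference of Slc1a2 to 10.73, of Rnf43 to 6.56 and of Sp5 to 7.43. Leaving out sham SAT 3 alone gave 8.27, 4.65 and 7.34 for these genes, and without either library or both all 8 genes stayed called higher in liver.

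In SAT the response to VAT removal could be tested for 7 of the 9 genes. None of the 7 passed (edgeR, Benjamini-Hochberg adjusted p of at least 0.431), as was the case for all 18530 genes tested (percent called 0). Rnf43 alone of the 7 had an unadjusted p below 0.05, as did 1973 genes in all (10.6%), and DESeq2 called 158 genes and limma voom 0. Glul stood at 599.6, 1248, 481, 453 and 856 CPM in sham SAT 1 to 5 and at 696, 670.4, 958, 860.0 and 814 CPM in VATR SAT 1 to 5. The sham values spread over a wider range than the VATR values and enclosed them. The log2 difference of Glul was 0.14 ± 0.27 (SE; edgeR, Benjamini-Hochberg adjusted p = 0.89).

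For Slc1a2 and Rnf43 the SAT comparison turned on sham SAT 3 and 4. Slc1a2 stood at 0.0593, 0.1002, 3.76, 3.04 and 0.333 CPM in sham SAT 1 to 5 and at 0.400, 0.424, 0.237, 0.0907 and 0.427 CPM in VATR SAT 1 to 5. Rnf43 stood at 0.652, 0.601, 8.76, 7.23 and 0.444 CPM in sham SAT 1 to 5 and at 0.739, 0.848, 0.261, 0.514 and 1.04 CPM in VATR SAT 1 to 5. Sham SAT 3 and 4, the libraries with the high lymphocyte markers, held 124 and 101 reads of Slc1a2 and 289 and 240 of Rnf43, and the other 8 SAT libraries held 2 to 14 and 11 to 34.

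With all libraries the log2 difference in SAT was -2.21 ± 1.02 for Slc1a2 (SE; edgeR, Benjamini-Hochberg adjusted p = 0.475) and -2.39 ± 0.89 for Rnf43 (edgeR, Benjamini-Hochberg adjusted p = 0.431). Without sham SAT 3 and 4 both signs turned, to 0.98 for Slc1a2 (edgeR, Benjamini-Hochberg adjusted p = 0.676) and 0.24 for Rnf43 (adjusted p = 0.872). The fitted difference of Glul turned from 0.14 to -0.17 and that of Tbx3 from 0.21 to -0.12 when these libraries were left out.

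The other genes in SAT had log2 differences near 0. Oat stood at 84.9 to 126 CPM in sham and 107 to 129.7 CPM in VATR SAT, with a log2 difference of 0.13 ± 0.13 (SE; edgeR, Benjamini-Hochberg adjusted p = 0.729). Axin2 stood at 14.7 to 31.3 and 15.6 to 28.4 CPM (-0.15 ± 0.24, adjusted p = 0.86). Znrf3 stood at 19.5 to 31.0 and 24.2 to 26.0 CPM (-0.05 ± 0.12, adjusted p = 0.92), and Tbx3 at 14.0 to 35.6 and 25.4 to 28.6 CPM (0.21 ± 0.23, adjusted p = 0.775). In each of these 4 genes the sham and the VATR libraries overlapped, as they did for all but 1.44% of the genes tested. Without VATR SAT 2 the log2 difference of Axin2 was -0.30 (edgeR, Benjamini-Hochberg adjusted p = 0.721). Lgr5, with 1 to 14 reads a library, and Sp5, with 0 to 6, were under the filter on low counts in SAT. A difference in them was not detectable at this depth.

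Whether the response differed between liver and SAT was tested as an interaction. None of the 9 genes passed (edgeR, Benjamini-Hochberg adjusted p of at least 0.374), nor did any of the 19954 genes tested (percent called 0, with 10.1% at an unadjusted p below 0.05), and DESeq2 called 124 and limma voom 0. Of the 9, 2 had an unadjusted p below 0.05. These were Slc1a2, at 2.28 ± 1.06 (log2, SE; edgeR, Benjamini-Hochberg adjusted p = 0.479), and Rnf43, at 2.51 ± 0.90 (edgeR, Benjamini-Hochberg adjusted p = 0.374). Without sham SAT 3 and 4 the values were -0.93 and -0.09. Lgr5 and Sp5 were under the filter on low counts in SAT and entered this fit through their liver counts. Their interaction could therefore not be judged, whatever the fitted value. That of Lgr5 was -0.59 with all libraries and -0.88 ± 0.38 without VATR SAT 2, which held 1 read of it.

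The rest of the pathway was described with 7 lists of 109 genes in all, of which 91 were tested in liver. None passed. An unadjusted p below 0.05 was found for 7 that were higher and 2 that were lower in VATR liver, or 9.89% of the genes tested, beside 9.9% of all genes. In SAT, 87 were tested and none passed. There, 6 higher and 2 lower genes, or 9.2%, had an unadjusted p below 0.05, beside 10.6% of all genes. The balance of directions in SAT changed with the libraries that stood apart. Without sham SAT 3 and 4, 4 higher and 7 lower genes of 90 tested had such a p (12.2%, beside 8.77% of all genes). Without VATR SAT 2, 5 higher and 4 lower of 91 had one (9.89%, beside 9.13% of all genes). In each list the genes named had its smallest p values, and every adjusted p given for them is from edgeR with Benjamini-Hochberg adjustment over all genes.

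Of the ligands and the proteins that secrete them, 11 were tested in liver, with a median log2 difference of 0.07. Wnt9b, a ligand of central vein endothelium, stood at 1.29 ± 0.359 CPM (SD, n = 5) in sham and 0.819 ± 0.384 CPM in VATR liver, a log2 difference of -0.65 ± 0.35 (edgeR, Benjamini-Hochberg adjusted p = 0.583). Porcn, which attaches the lipid that Wnt proteins need for secretion, had 0.40 ± 0.26 and Rspo1, an R-spondin, 0.43 ± 0.31. In SAT the values were 0.66 ± 0.41 for Wnt4 and 0.76 ± 0.51 for Rspo3, and that of Wnt4 was 1.02 without sham SAT 3 and 4 and 0.079 without VATR SAT 2.

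Of the receptors, 14 were tested in liver, with 11 higher, 3 lower and a median of 0.11. Ror1, a receptor tyrosine kinase for Wnt5a, stood at 7.89 ± 0.453 CPM in sham and 10.4 ± 1.48 CPM in VATR liver. Its groups did not overlap, as in 2.44% of all genes tested, and its log2 difference was 0.40 ± 0.11 (edgeR, Benjamini-Hochberg adjusted p = 0.307). Lrp6, the Wnt co-receptor, stood at 165.8 ± 12.0 CPM in sham and 191 ± 16.8 CPM in VATR liver (0.20 ± 0.08, edgeR, Benjamini-Hochberg adjusted p = 0.459). Lgr6, a relative of Lgr5 at under 1 CPM, had 1.07 ± 0.49 (edgeR, Benjamini-Hochberg adjusted p = 0.498). In SAT, Fzd6 had 0.29 ± 0.11 and Lrp5 0.31 ± 0.15, and without sham SAT 3 and 4 these were 0.25 and 0.12. The SAT groups of Fzd6 did not overlap with all libraries, as in 1.44% of all genes.

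Of the destruction complex, beta-catenin and its nuclear partners, all 20 were tested in liver, with 12 higher, 8 lower and a median of 0.01. An unadjusted p below 0.05 was found for 3 of the 20, beside 9.9% of all genes tested. Pygo1, a nuclear partner of beta-catenin, stood at 0.538 ± 0.181 CPM in sham and 2.43 ± 1.88 CPM in VATR liver, a log2 difference of 2.20 ± 0.54 (edgeR, Benjamini-Hochberg adjusted p = 0.256). The sham and VATR livers of Pygo1 overlapped. Those of Pygo2, a relative of Pygo1, did not, as in 2.44% of all genes tested. Pygo2 had 0.21 ± 0.07 (edgeR, Benjamini-Hochberg adjusted p = 0.380) and Bcl9l 0.15 ± 0.07 (edgeR, Benjamini-Hochberg adjusted p = 0.488).

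Pygo1 also had the smallest p of this list in SAT, at 7.68 ± 1.72 CPM in sham and 11.8 ± 1.94 CPM in VATR SAT (0.62 ± 0.17, edgeR, Benjamini-Hochberg adjusted p = 0.431). Its SAT groups did not overlap, as in 1.44% of all genes tested, and without sham SAT 3 and 4 its log2 difference was 0.41. Tcf7, a TCF factor that T lymphocytes also express, stood at 45.6 ± 60.3 CPM in sham and 2.92 ± 0.780 CPM in VATR SAT. Its log2 difference of -3.96 ± 1.30 (edgeR, Benjamini-Hochberg adjusted p = 0.431) became 0.57 without sham SAT 3 and 4, the libraries with the high lymphocyte markers.

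Of the secreted and feedback inhibitors, 6 were tested in liver, with a median of 0.14. Sfrp1 (0.54 ± 0.58), Nkd2 (0.27 ± 0.35) and Dkk3 (0.17 ± 0.32) had unadjusted p values of 0.370 or more. In SAT, Nkd1, an inhibitor of Dishevelled that is itself a Wnt target, stood at 53.4 ± 11.5 CPM in sham and 75.7 ± 8.37 CPM in VATR SAT (0.50 ± 0.15, edgeR, Benjamini-Hochberg adjusted p = 0.431). Without sham SAT 3 and 4 its log2 difference was 0.30. Dkk3 had 0.39 ± 0.21 in SAT.

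Of 13 other pericentral genes tested in liver, 6 were higher and 7 lower, with a median of -0.05. Aldh1a1, a retinaldehyde dehydrogenase, stood at 1158 ± 280.2 CPM in sham and 872 ± 127 CPM in VATR liver (-0.41 ± 0.17, edgeR, Benjamini-Hochberg adjusted p = 0.464). Cyp7a1, the enzyme that sets the rate of bile acid synthesis, stood at 67.9 ± 23.8 and 106 ± 34.7 CPM (0.64 ± 0.26, edgeR, Benjamini-Hochberg adjusted p = 0.467). Nr1i3, the nuclear receptor CAR, had 0.51 ± 0.30. In SAT, Slc13a3 had 0.94 ± 0.44 and Ccnd1 -0.38 ± 0.21, or 0.61 and -0.049 without sham SAT 3 and 4. Without VATR SAT 2 these were 1.03 and -0.49.

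Of 12 periportal genes, which mark the opposite end of the lobule, 6 were higher and 6 lower, with a median of 0.01. Cyp2f2, a periportal cytochrome P450, stood at 761 ± 126 CPM in sham and 493 ± 133 CPM in VATR liver (-0.63 ± 0.19, edgeR, Benjamini-Hochberg adjusted p = 0.309). Its groups did not overlap, as in 2.44% of all genes tested, with the highest VATR liver at 664 CPM and the lowest sham liver at 674 CPM. Pigr had 0.37 ± 0.18 and Etnppl -0.60 ± 0.42. In SAT, Arg1 had 0.46 ± 0.35 and Cyp2f2 -0.41 ± 0.50. Of the list fixed for ammonia, glutamine and proline handling, 15 were tested in liver, with 11 higher, 4 lower and a median of 0.07. The glutamine and amino acid transporter genes Slc38a3 (0.23 ± 0.14), Slc1a4 (-0.45 ± 0.29) and Slc38a4 (0.20 ± 0.14) had the smallest p in liver. In SAT, Pycr1, an enzyme of proline synthesis, had 0.53 ± 0.20 (edgeR, Benjamini-Hochberg adjusted p = 0.431) and Slc1a4 0.47 ± 0.21 (edgeR, Benjamini-Hochberg adjusted p = 0.460). Without sham SAT 3 and 4 these were 0.38 and 0.19.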

How the data were processed

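Per the labels' protocols, total RNA came from tissue frozen in liquid nitrogen and ribosomal RNA was removed before sequencing. Per the submitters' processing notes, the tools were bcl2fastq, STAR 2.5.1a and featureCounts 1.46 of Subread, with GRCm38; the annotation, strand setting and handling of multimapping reads are not described in the sources at hand. The authors deposited raw counts per gene symbol. Of 40757 entries, 317 exact repeats (102 with counts) were removed; where entries under 1 symbol differed in their counts (117 symbols), each stayed its own row.

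Each contrast was fitted on the whole table with edgeR 4.0.16 (R 4.3.3) using filterByExpr, TMM, robust quasi-likelihood tests and Benjamini-Hochberg adjustment at 0.05. Liver and SAT were fitted separately (10 libraries each), and the interaction and the sham liver against sham SAT comparison on all 20. Errors are SDs between libraries or SEs of log2 differences. No 2 libraries of a group were identical. The lowest chi-square per degree of freedom among 40 pairs was 16.2, between sham SAT 3 and sham SAT 4. Either of these against the other sham SAT libraries gave 131.6 to 207.2. Correlations used log2 CPM (prior count 0.5), scipy 1.17.1 for ranks and 100000 permutations, all permutations being enumerated with 9 libraries. Gene positions are from GENCODE M21.

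The 9 genes, the lists and the tests were chosen with earlier results of these data known. Named genes are the 9, the 3 with the smallest p in liver and the 2 in SAT of each list, and the 3 most like Glul, Axin2 and Lgr5, of which 1 each for Glul and Lgr5 is not reported here. Alternatives were DESeq2 1.42.0, limma 3.58.1 voom, other scalings and filters, no robust fitting, a replicate block, 1 fit of all 20 libraries, leaving out each library, and leaving out sham SAT 3 and 4. Tested on simulated counts, the liver fit recovered 32.8%, 61.2% and 83.3% of genes changed 1.5-, 2- and 4-fold with 1 false call among 16793 genes tested, and the SAT fit 11.9%, 41.8% and 92.4% with 3 among 18295. The changed genes were drawn at random. All of the 9 but Znrf3 varied more between livers of 1 group than the median gene, so these shares need not hold for them. Rhbg and Tf, which the lists name, were not analysed here.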

Additional observations from a re-analysis of the deposited data

Results flagged for a closer look

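Of the 36 sets of 5 libraries formed by the 9 genes and 4 groups, 5 held a library far from the other 4. The mark was a gap above 0.71 of the range, which flags about 1 in 20 sets of independent normal values. These sets share libraries and hold CPM, which cannot fall below 0, so their count cannot be set against that share. In all 5 the library was the highest of its group. Glul in VATR liver 5 was 1660.3 CPM against 684 to 964 CPM in the other VATR livers. Axin2 in sham liver 1 was 23.4 CPM against 10.1 to 12.5 CPM in the other sham livers. Znrf3 in VATR liver 3, the library with the fewest reads, was 31.6 CPM against 26.1 to 27.1 CPM. Znrf3 in VATR SAT 3 was 26.0 CPM against 24.2 to 24.5 CPM, a small gap within a narrow group. Sp5 in VATR SAT 4 was 0.121 CPM, or 4 reads, against 0 to 0.0305 CPM.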

How the results depend on the processing

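In liver, SAT and the interaction none of the 9 genes passed the threshold under any alternative run, and in the tissue comparison the same 8 genes stayed called higher in liver. Counts over all genes moved more. In liver 0 genes were called with the settings reported, 220 with DESeq2, 27 in 1 fit of all 20 libraries and 3 each with limma voom, with a minimum of 1 CPM in 5 libraries and with no filter; leaving out each library gave 0 to 53, with 53 without VATR liver 3. In SAT DESeq2 called 158 genes and leaving out each library gave 0 to 1; in the interaction these were 124 and 0 to 3. In the tissue comparison leaving out each library gave 12991 to 13583 calls beside 13399, and upper quartile scaling moved the median of all genes from -0.11 to -0.24 (log2). Leaving out each liver gave 2 to 4 correlated pairs beside 3: Lgr5 with Tbx3 joined without VATR liver 3 (exact permutation, adjusted p = 0.0208) and Lgr5 with Sp5 without sham liver 3 (0.0412).

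Signs of differences near 0 turned. In liver Oat was -0.059 with voom and -0.058 with the replicate block, Slc1a2 -0.00029 with the block, Sp5 0.064 with voom and 0.030 with the block, and Znrf3 -0.00098 in 1 fit of all 20 libraries. Leaving out each library gave in liver -0.44 (without VATR liver 5) to -0.020 (without sham liver 1) for Glul, -0.31 to 0.16 for Axin2, -0.28 to 0.092 for Lgr5, -0.12 to 0.33 for Oat, -0.041 to 0.34 for Rnf43, -0.11 to 0.29 for Slc1a2, -0.28 to 0.31 for Sp5, -0.21 to 0.37 for Tbx3 and -0.040 to 0.039 for Znrf3. The highest values came without VATR liver 2 for Oat and Slc1a2 and without sham liver 1 for the other 7. The lowest came without VATR liver 1 for Axin2, Oat and Tbx3, without sham liver 5 for Lgr5 and Rnf43, without sham liver 2 for Slc1a2 and Sp5 and without VATR liver 3 for Znrf3. In SAT it gave -0.13 to 0.024 for Znrf3 (the latter without sham SAT 3), and in the interaction -0.14 to 0.32 for Axin2, -0.25 to 0.19 for Oat, -0.46 to 2.18 for Sp5, -0.42 to 0.15 for Tbx3 and -0.018 to 0.14 for Znrf3. The lowest of these came without VATR liver 1 for Axin2, Oat and Tbx3 and without sham SAT 3 for Sp5 and Znrf3, and the highest without sham liver 1 for Axin2 and Tbx3, VATR liver 2 for Oat, VATR SAT 4 for Sp5 and sham SAT 5 for Znrf3. Without sham SAT 3 and 4 the SAT values were -0.17 for Glul, -0.031 for Oat, 0.98 for Slc1a2, 0.00032 for Axin2, 0.24 for Rnf43, 0.0035 for Znrf3 and -0.12 for Tbx3, and the interaction values 0.028 for Glul, 0.13 for Oat, -0.93 for Slc1a2, -0.087 for Axin2, -0.089 for Rnf43, 0.21 for Tbx3 and -0.57 for Sp5. The interaction of Axin2 was -0.0059 with DESeq2 and -0.0035 with DESeq2's size factors in edgeR (RLE). The cause of these shifts was not tested.

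Replicate numbers were not taken as pairing the libraries, since the labels do not tie same-numbered libraries together. For the most highly expressed genes, the deviation of log2 CPM from the group mean was correlated between libraries. This r was above 0.1 in 4 of 5 same-numbered pairs of sham and VATR livers (-0.139 to 0.299). In SAT it was above 0.1 in 2 of 5 (-0.479 to 0.262). Whether the numbers mark something the livers share was not tested. Among the VATR libraries of its tissue, the one of the same number had the highest r for 3 of 5 sham livers and 0 of 5 sham SAT libraries. With the replicate block the counts of calls were 0 in liver, 0 in SAT, 0 in the interaction and 13145 in the tissue comparison. In liver the SE with the block was 0.144 for Axin2, 0.251 for Slc1a2 and 0.263 for Oat, beside 0.286, 0.405 and 0.417 without it. For Glul it rose from 0.308 to 0.346 with the block, and for Znrf3 it went from 0.084 to 0.072.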
